A study of Homo sapiens with 18 samples.

Results

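Heat shock proteins and their cochaperones were followed in HCT116 cells, a colorectal cancer cell line, as a group of 35 genes. They were found by gene symbol among the 61552 genes of the raw count table, and comprised the cytosolic and mitochondrial chaperones, their helper proteins and the heat shock factors HSF1 and HSF2. Of the 35, 34 passed the filter on low counts and were tested among 19038 genes. HSPA6, a stress-inducible HSP70, was not tested: it had 46 counts over the 18 libraries, with 0 to 6 per library and 4 libraries at 0.

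Each line had IκBα knocked in. This protein binds NF-κB and keeps it out of the nucleus until TNFα leads to its destruction. The versions were wild-type IκBα (WT), an N108 mutant, and an M3 mutant in which 3 neighbouring residues, histidine 84, glutamate 85 and glutamate 86, were changed to alanine. Each was left untreated or treated with human TNFα (TNF) at 0.1 µg/mL for 40 min, which gave 6 groups of 3 libraries. Nothing in the labels states that the libraries of a group came from separate cultures, so the p-values rest on a spread from library to library that may be technical. One line stands for each genotype as far as the labels say, so the mutation and the line that carries it cannot be told apart, and counts per gene do not show the mutated residues.

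The libraries held 49021907 to 76947190 counts, and replicates differed by more than counting noise, the chi-square per degree of freedom between replicates being 3.42 to 23.5. All 7 epithelial markers lay above 1 CPM (counts scaled to a common library total) in every group, with summed levels of 6540 to 7300 CPM in WT, 5040 to 5560 CPM in N108 and 3970 to 4620 CPM in M3. The 5 haematopoietic markers summed to 2.66 to 4.12 CPM in WT and to 0.114 to 0.526 CPM in the mutants, and 1 of the 5 in WT and 0 in the mutants averaged above 1 CPM. The 5 fibroblast markers summed to 19.5 to 27.4 CPM in WT and 28.5 to 38.7 CPM in the mutants. The 3 endothelial markers summed to 1.14 to 1.41 CPM in WT, 1.16 to 1.75 CPM in N108 and 0.543 to 1 CPM in M3. PTPRC and CD3E reached at most 0.0164 and 0.0307 CPM, DCN had 0 counts, and LYZ at 0.0815 to 3.9 CPM and COL1A1 at 15.3 to 36.4 CPM made up most of their lists. The epithelial, haematopoietic and fibroblast sums did not overlap between WT and the mutants, nor did the endothelial sum between WT and M3, and their part in the differences below was not tested. In bulk RNA, fewer cells of a kind and less RNA per cell cannot be told apart.

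Chaperones bind unfolded or newly made proteins and let them fold. HSP70 proteins do so in cycles of ATP use that J-domain proteins start and nucleotide exchange factors end, and HSP90 receives clients from HSP70 through cochaperones. When unfolded protein accumulates, HSF1 is released from chaperones, forms trimers and binds heat shock elements, alternating GAA and TTC units, in the promoters of many of these genes. Cancer cells often depend on high levels of these proteins.

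The window from 250 bases before to 50 after each RefSeq gene start (build GRCh38.p14) was searched for the heat shock element. Whether promoter sequence has a part in the differences below was not tested. The motif was GAANNTTCNNGAA or TTCNNGAANNTTC, which are reverse complements, so that both strands were covered and overlapping matches were counted apart. Every base of the units had to match. A window without a match may thus hold an element with a changed base, and a gene may have one outside its window. A match stood in 0.49% of the 35116 windows and for 0.608% of the 27305 genes of the table. Of the 35 genes, 31 had a window, and 8 had a match: HSPA6, HSPA8, HSPD1, HSP90AA1, HSP90AB1, DNAJA1, DNAJB6 and CHORDC1. The 5 windows shown read 5′ to 3′ along the gene, with every match in capitals. The first 4 hold a match, at +4 in DNAJA1, -131 in DNAJB6, -60 to -50 in CHORDC1 (3 overlapping matches), and -230 and -55 in HSPA8, counted from the gene start to the first base of the match. HSPH1 is shown because it had the largest difference from WT of the group, in M3, and its window holds no match.
DNAJA1 (chr9:33025023-33025322, plus strand): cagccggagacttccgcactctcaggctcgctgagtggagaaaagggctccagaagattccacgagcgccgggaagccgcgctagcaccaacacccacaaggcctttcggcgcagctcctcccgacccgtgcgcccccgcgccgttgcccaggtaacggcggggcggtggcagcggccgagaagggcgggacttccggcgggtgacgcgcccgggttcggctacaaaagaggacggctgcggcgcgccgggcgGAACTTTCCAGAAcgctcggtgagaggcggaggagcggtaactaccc
DNAJB6 (chr7:157336754-157337053, plus strand): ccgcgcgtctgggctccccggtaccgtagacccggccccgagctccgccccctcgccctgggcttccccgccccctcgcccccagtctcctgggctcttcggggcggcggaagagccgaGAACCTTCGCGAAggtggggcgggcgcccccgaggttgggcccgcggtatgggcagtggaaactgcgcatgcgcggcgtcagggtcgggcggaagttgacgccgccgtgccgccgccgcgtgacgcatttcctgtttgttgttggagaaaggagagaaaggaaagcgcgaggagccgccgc
CHORDC1 (chr11:90223000-90223299, minus strand): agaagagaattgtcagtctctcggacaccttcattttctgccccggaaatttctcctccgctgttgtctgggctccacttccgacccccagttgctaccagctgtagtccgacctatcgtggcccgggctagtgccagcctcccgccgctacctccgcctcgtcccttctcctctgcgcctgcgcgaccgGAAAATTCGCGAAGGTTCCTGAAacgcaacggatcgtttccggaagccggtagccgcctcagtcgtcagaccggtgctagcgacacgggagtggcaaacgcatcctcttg
HSPA8 (chr11:123062087-123062386, minus strand): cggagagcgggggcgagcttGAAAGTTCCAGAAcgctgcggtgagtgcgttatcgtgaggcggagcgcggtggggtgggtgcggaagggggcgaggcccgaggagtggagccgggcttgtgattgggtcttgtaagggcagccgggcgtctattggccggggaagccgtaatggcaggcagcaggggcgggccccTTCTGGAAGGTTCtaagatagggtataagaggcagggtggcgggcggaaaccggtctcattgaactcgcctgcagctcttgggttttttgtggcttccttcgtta
HSPH1 (chr13:31162339-31162638, minus strand): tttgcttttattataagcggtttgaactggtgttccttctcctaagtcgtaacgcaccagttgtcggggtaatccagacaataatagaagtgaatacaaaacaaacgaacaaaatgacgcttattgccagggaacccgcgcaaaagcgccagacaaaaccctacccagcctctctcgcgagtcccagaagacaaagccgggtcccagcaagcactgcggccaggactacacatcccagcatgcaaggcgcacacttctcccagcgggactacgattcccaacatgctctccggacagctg

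Levels between genes were compared as CPM per kilobase of exon, averaged over the 18 libraries. HSP90AB1, the constitutive cytosolic HSP90, stood highest at 1377 CPM per kb, followed by the inducible form HSP90AA1 at 737.1, the constitutive HSP70 HSPA8 at 436.6, the mitochondrial chaperonin HSPD1 at 320.1 and the small heat shock protein HSPB1 at 220.9. At the other end were HSPB8 at 1.293, HSPA1A at 1.025, HSPA2 at 0.8112 and HSPA6 at 0.0188 CPM per kb. HSP90AB1 and HSP90AA1 took 23.9% and 22.5% of all counts in the 35 genes, HSPA8 took 12.3% and HSPD1 7.92%, together 66.7%. The 35 genes made up 1.78 ± 0.011% of the counts in untreated WT (SD, n = 3), 1.67 ± 0.02% in untreated N108 and 1.64 ± 0.017% in untreated M3. With TNF the shares were 1.85 ± 0.033% in WT, 1.67 ± 0.063% in N108 and 1.69 ± 0.046% in M3. Every mutant library had a smaller share than every WT library of either condition.

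**Figure D1:**
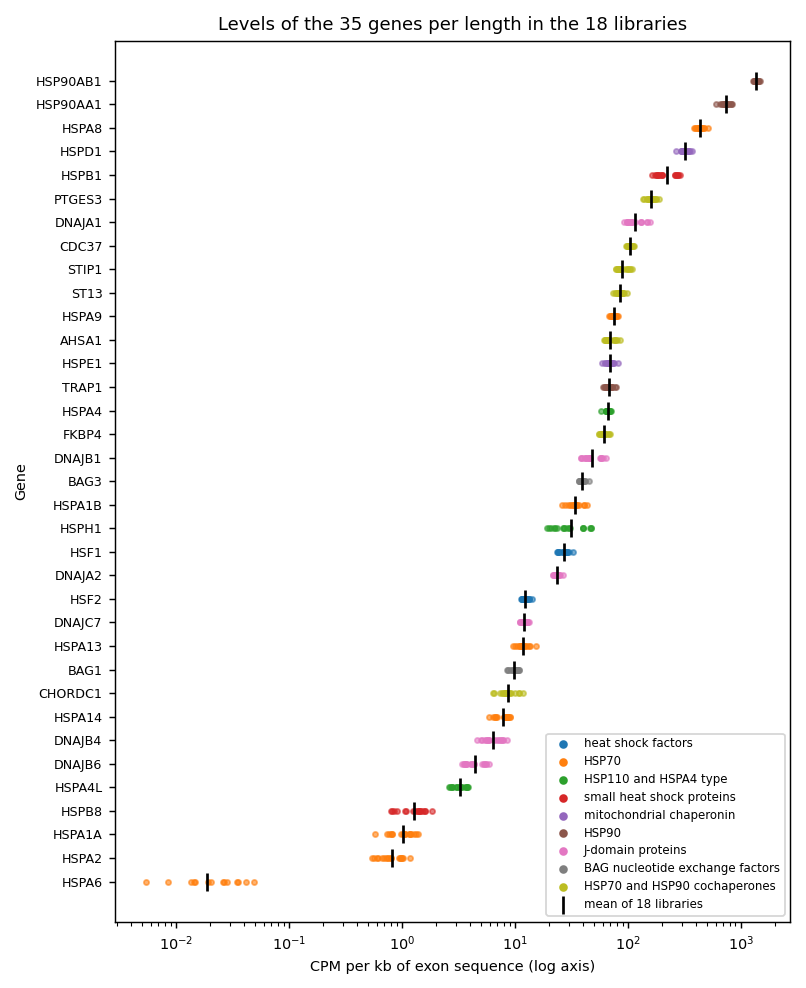
Level of each of the 35 genes in CPM per kb of exon on a log axis, 1 point per library coloured by the role of the gene, with a tick at the mean of 18 libraries and genes ordered by it. HSP90AB1 stands highest at 1377 CPM per kb and HSPA6 lowest at 0.0188; the 4 HSPA6 libraries with 0 counts cannot be drawn on a log axis.

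More chaperone transcripts were lower than higher in both IκBα mutants against WT, with or without TNF. In untreated cells 3 of the 34 genes were higher and 13 lower in N108 (edgeR's quasi-likelihood test, adjusted p under 0.05 over all genes tested), which is 47.1% called, beside 42.4% of all genes tested. Of all genes 20.9% were called higher and 21.6% lower in that comparison. In untreated M3, 2 of the 34 genes were higher and 18 lower, or 58.8% called beside 52.9% of all genes, 26.1% higher and 26.8% lower. The share called was thus close to the background, and lower calls outnumbered higher ones among the 34. The median log2 fold change of the 34 was -0.11 in N108 and -0.14 in M3, beside 0.01 and 0.00 for all genes. With the trend of fold change with GC content removed, 5 were higher and 22 lower in untreated N108. The shares of all genes above come from the fit without that step, so these 2 counts have no background beside them.

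With TNF present in both arms the counts were larger. N108 had 2 genes higher and 24 lower than WT, 76.5% of the 34 beside 46.7% of all genes called (23% higher, 23.6% lower), with a median of -0.26 beside 0.02. M3 had 2 higher and 23 lower, 73.5% beside 54.7% of all genes (26.9% higher, 27.8% lower), with a median of -0.21 beside 0.02. Among the 10000 genes with a mean of at least 10 CPM, which include 31 of the group, lower calls also outnumbered higher ones. In untreated N108 24.1% of them were higher and 28.1% lower, in untreated M3 27.7% and 34.8%, and with TNF 23.7% and 33.6% in N108 and 26% and 38.3% in M3. Of the 31, 3 were higher and 11 lower in untreated N108, 2 and 15 in untreated M3, and with TNF 2 and 22 in N108 and 2 and 21 in M3. All 3 mutant libraries lay below all 3 WT libraries for 19 and 21 of the 34 genes in untreated N108 and M3, beside 28.1% and 30.6% of all genes, and for 25 and 26 with TNF, beside 25.5% and 31.4%. The comparisons of the mutants with WT share the WT libraries of each condition, so N108 and M3 are given side by side and not as independent counts.

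In untreated cells 10 of the 34 were lower in both mutants: HSPA1A, HSPA2, HSPH1, HSPB1, HSPD1, DNAJA1, DNAJB1, DNAJB6, STIP1 and AHSA1. All of these except HSPA1A, 9 genes, were also lower in both mutants with TNF. HSPA4L and BAG1 were higher in both untreated mutants, and BAG1 was higher in all 4 comparisons with WT. HSP90AB1, BAG3 and CDC37 were called in none of the 4, and no gene was called in opposite directions in the mutants. The share of all genes called alike in both mutants was not counted, so these joint counts have no background beside them. Because both comparisons use the same WT libraries, joint calls are not independent.

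**Figure D2:**
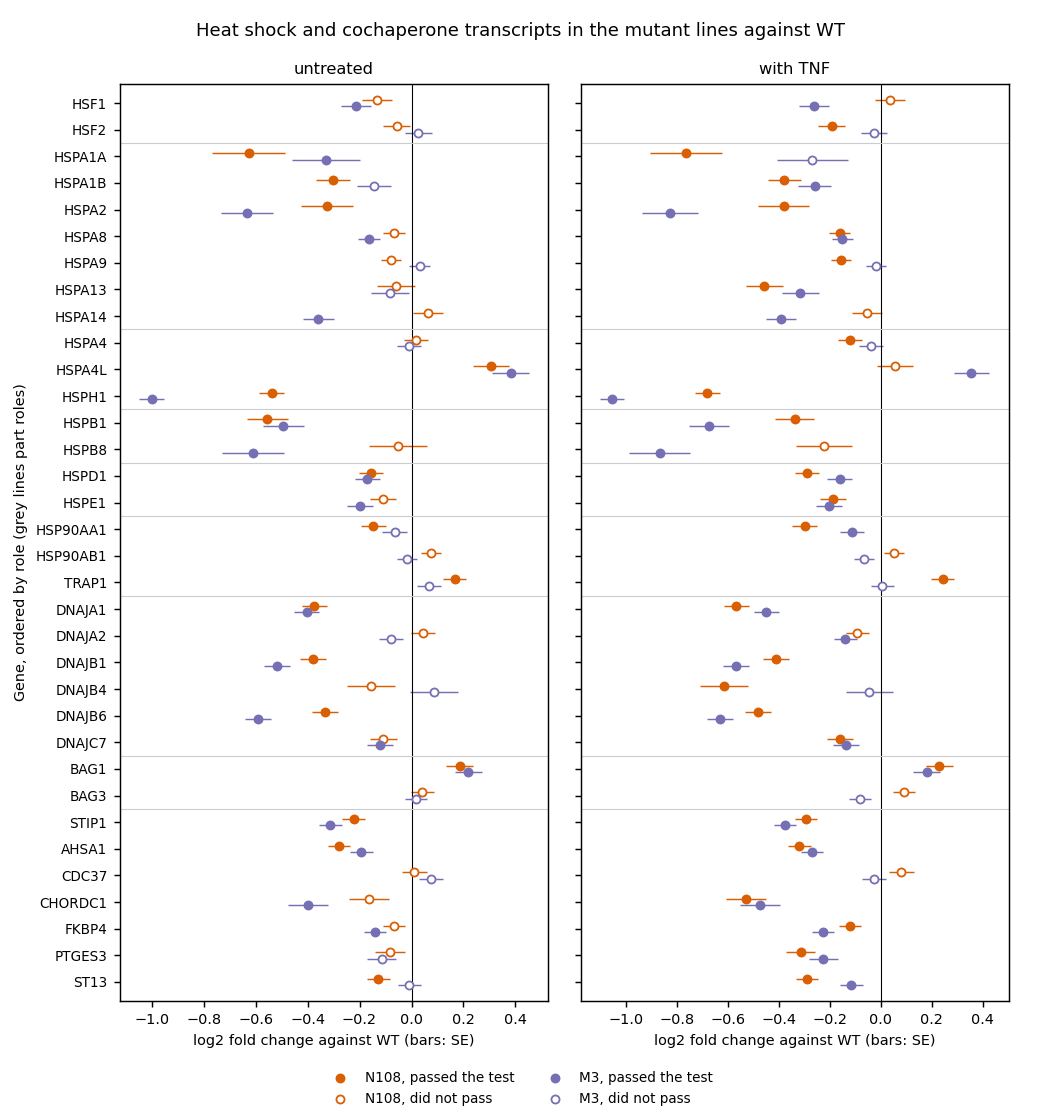
Log2 fold change of each of the 34 tested genes in N108 and M3 against WT, untreated and with TNF, with bars of 1 SE from the edgeR fit and filled points for adjusted p under 0.05. HSPH1 lies farthest below 0 in M3, at -1.0 untreated and -1.05 with TNF, and BAG1 lies above 0 in all 4 comparisons.

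HSF1, the main heat shock factor, was at 155, 151 and 162 CPM in untreated WT, 150, 134 and 143 CPM in N108, and 129, 132 and 143 CPM in M3. With TNF it was at 155, 149 and 155 CPM in WT, 153, 175 and 143 CPM in N108 and 126, 129 and 128 CPM in M3. All M3 libraries lay below all WT libraries of the same condition, while the N108 range overlapped that of WT with TNF. The log2 fold change in M3 was -0.21 (SE 0.058, adjusted p = 0.0028) untreated and -0.26 (adjusted p = 4e-04) with TNF. In N108 it was -0.13 (adjusted p = 0.067) and 0.04 (adjusted p = 0.64). HSF2, a second factor that can form mixed trimers with HSF1, stood at 31.4 to 34.5 CPM over the untreated libraries and, of the 4 comparisons with WT, was called in N108 with TNF, at -0.19 (adjusted p = 0.0037).

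Of the 7 tested HSP70 genes, 3 were lower in untreated N108 and 4 in untreated M3, and none was higher. That is 42.9% and 57.1% called, beside 42.4% and 52.9% of all genes called and 21.6% and 26.8% called lower. HSPA8 (chromosome 11, 123057489 to 123063230 on the minus strand; positions of genes are GENCODE 29 on GRCh38), the constitutive HSP70, was at 2147, 2169 and 2117 CPM in untreated WT, 2076, 1980 and 2080 CPM in N108 and 1914, 1864 and 1966 CPM in M3. The 3 groups did not overlap. Its difference from WT was -0.07 (SE 0.042, adjusted p = 0.21) in N108 and -0.16 (adjusted p = 0.0019) in M3, where it was 1.12-fold lower. With TNF it was at 2289, 2317 and 2474 CPM in WT, 2195, 2032 and 2104 CPM in N108 and 2192, 2073 and 2115 CPM in M3, so that both mutants lay below WT, at -0.16 (adjusted p = 0.0027) and -0.15 (adjusted p = 0.0039).

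HSPA1A and HSPA1B encode the stress-inducible HSP70 and lie close together on chromosome 6, at 31815464 to 31817946 and 31827735 to 31830255. They are near-identical copies, and how reads shared by both were counted was not stated in the labels or processing notes, so each is uncertain alone. HSPA1A took 1.78% to 3.39% of their summed level in every library. HSPA1A was at 3.3, 2.96 and 2.86 CPM in untreated WT, 2.03, 1.93 and 1.98 CPM in N108 and 2.65, 2.03 and 2.63 CPM in M3, and its call in M3 (-0.33, adjusted p = 0.042) held in 19 of 26 alternatives (-0.27, adjusted p = 0.074, with the GC trend removed). HSPA1B was at 93.9, 86.9 and 88 CPM in untreated WT, 83, 69.7 and 65.5 CPM in N108 and 85.6, 82.1 and 75.4 CPM in M3. Both mutants lay below WT for HSPA1B, with differences of -0.30 (adjusted p = 0.00049) in N108 and -0.14 (adjusted p = 0.064) in M3. With TNF, HSPA1A was at 3.21, 3.01 and 3.46 CPM in WT, 2.43, 1.83 and 1.43 CPM in N108 and 2.52, 2.93 and 2.62 CPM in M3. HSPA1B was then at 103, 103 and 110 CPM in WT, 78.6, 85.8 and 79.2 CPM in N108 and 86, 89.5 and 89.1 CPM in M3, so that every mutant library lay below every WT library for both copies. With the copies summed, the difference from WT was -0.31 (adjusted p = 0.00028) in untreated N108 and -0.15 (adjusted p = 0.05) in untreated M3. With TNF the difference of the sum was -0.39 (adjusted p = 1.9e-05) in N108 and -0.26 (adjusted p = 0.0013) in M3.

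HSPA2, an HSP70 best known from the testis, was at 5.68, 5.43 and 5.68 CPM in untreated WT, 4.38, 4.39 and 4.63 CPM in N108 and 3.58, 3.25 and 4.01 CPM in M3. The 3 groups did not overlap, with differences from WT of -0.33 (SE 0.1, adjusted p = 0.01) in N108 and -0.63 (SE 0.1, adjusted p = 1.1e-05) in M3. With TNF, M3 was at 3.15, 3.87 and 3.49 CPM against 5.77, 5.86 and 6.87 CPM in WT, a difference of -0.82 (adjusted p = 2.2e-07). HSPA14, a ribosome-associated HSP70, was at 21.7, 22.5 and 21.3 CPM in untreated WT, 22.3, 23.2 and 22.9 CPM in N108 and 17.8, 15.7 and 17.6 CPM in M3. N108 overlapped WT and M3 lay below both; the M3 difference was -0.36 (SE 0.058, adjusted p = 8.6e-06) untreated and -0.39 (adjusted p = 2.5e-06) with TNF.

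HSPH1 showed the largest difference of the group, in M3. In N108, HSPA1A, a gene with few counts, differed more, at -0.63 untreated and -0.76 with TNF. HSPB1, at -0.56, also differed more in untreated N108. HSPH1 encodes HSP105, an HSP110 protein that exchanges nucleotide on HSP70, and lies on chromosome 13 at 31134974 to 31162388 on the minus strand. Untreated WT libraries were at 337, 337 and 340 CPM, N108 at 242, 227 and 229 CPM and M3 at 176, 170 and 161 CPM. With TNF they were at 396, 392 and 401 CPM in WT, 260, 227 and 255 CPM in N108 and 190, 186 and 197 CPM in M3. The 3 genotypes did not overlap in either condition, and M3 was lowest. The untreated difference from WT was -0.54 (SE 0.048, adjusted p = 4e-10), 1.45-fold lower, in N108 and -1.0 (SE 0.048, adjusted p = 4.9e-16), 2.00-fold lower, in M3. With TNF it was -0.68 (adjusted p = 3.2e-12) and -1.05 (adjusted p = 1.5e-16), and these calls held under all 26 alternatives run. Of its relatives, HSPA4 was called in 1 comparison with WT, N108 with TNF, at -0.12 (adjusted p = 0.037), a call that held in 20 of 26 alternatives. HSPA4L was at 32.3, 32.2 and 30.4 CPM in untreated WT, 40.4, 39.1 and 37.9 CPM in N108 and 44.3, 43.3 and 36.1 CPM in M3, higher by 0.31 (adjusted p = 0.0008) and 0.38 (adjusted p = 4.7e-05).

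HSPB1 encodes HSP27, a small heat shock protein that holds unfolded proteins in soluble complexes, and lies on chromosome 7 at 76302544 to 76304295. It was at 441, 428 and 453 CPM in untreated WT, 317, 288 and 295 CPM in N108 and 306, 306 and 328 CPM in M3. Both mutants lay below the WT range, at -0.56 (SE 0.079, adjusted p = 1.2e-05) in N108 and -0.49 (SE 0.079, adjusted p = 3.1e-05) in M3. With TNF, WT was at 454, 450 and 475 CPM, N108 at 330, 433 and 329 CPM and M3 at 270, 293 and 302 CPM, with differences of -0.34 (adjusted p = 0.0017) and -0.67 (adjusted p = 7.1e-07). In N108, 1 of the treated libraries came near the WT range. That library, N108 with TNF replicate 2, had the highest Spearman correlation with transcript GC content, 0.44. The correlation used each gene's log2 level in a library relative to its mean over the 18 libraries. Among the N108 libraries with TNF, replicate 2 was also the highest for HSF1 and HSPA1B. It was the lowest for HSPH1, DNAJA1, DNAJB6, HSP90AA1 and STIP1, among others. The part of GC content in these values was not tested. HSPB8, a partner of BAG3, was called lower in M3 and not in N108: it was at 4.08, 3.9 and 4.08 CPM in untreated WT against 2.42, 2.36 and 3.14 CPM in M3, a difference of -0.61 (adjusted p = 6.7e-05), and -0.87 (adjusted p = 4.1e-07) with TNF. N108 itself lay above M3 for HSPB8, by 0.56 (adjusted p = 0.00047) untreated and 0.64 (adjusted p = 8.3e-05) with TNF.

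HSPD1 and HSPE1 form the mitochondrial chaperonin and its lid, and are neighbours on chromosome 2. HSPD1 was at 1417, 1464 and 1450 CPM in untreated WT, 1259, 1296 and 1333 CPM in N108 and 1305, 1259 and 1284 CPM in M3, with differences of -0.16 (adjusted p = 0.011) and -0.17 (adjusted p = 0.0042). Without N108 untreated replicate 1 the N108 calls for HSPD1 and HSP90AA1 were lost, at adjusted p of 0.058 and 0.083. The untreated N108 call for ST13 was lost without that library, WT untreated replicate 1 or 2 or N108 untreated replicate 3, at adjusted p up to 0.084. HSPE1 was at 145, 145 and 141 CPM in untreated WT and 125, 117 and 134 CPM in M3, lower at -0.20 (adjusted p = 0.0018). Both lay below WT in each mutant with TNF, HSPD1 at -0.29 (adjusted p = 1.9e-05) in N108 and -0.16 (adjusted p = 0.0062) in M3. The mitochondrial HSP70 HSPA9 was called in N108 with TNF only, at -0.16 (adjusted p = 0.002), and the mitochondrial HSP90 TRAP1 was higher in N108, at 0.17 (adjusted p = 0.0041) untreated and 0.24 (adjusted p = 7.4e-05) with TNF.

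HSP90AA1 and HSP90AB1 encode the inducible and the constitutive cytosolic HSP90, which complete the folding of kinases and steroid receptors. HSP90AA1 (chromosome 14, 102080738 to 102139699, minus strand) was at 3914, 4020 and 4010 CPM in untreated WT, 3460, 3570 and 3753 CPM in N108 and 3884, 3741 and 3796 CPM in M3. N108 lay lowest, with a difference of -0.15 (SE 0.048, adjusted p = 0.013), and M3 missed the threshold at -0.07 (adjusted p = 0.26). With TNF it was at 4292, 4282 and 4386 CPM in WT, 3730, 3207 and 3604 CPM in N108 and 3944, 3878 and 4160 CPM in M3, which gave -0.30 (adjusted p = 9.3e-06) in N108 and -0.11 (adjusted p = 0.046) in M3, the latter called in 12 of 26 alternatives. HSP90AB1 was at 3948 to 4065 CPM in untreated WT, 4184 to 4264 CPM in N108 and 3888 to 4025 CPM in M3. Its difference from WT was 0.08 (95% interval -0.01 to 0.16) in N108 and -0.02 (-0.10 to 0.07) in M3.

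J-domain proteins choose the clients of HSP70 and start its ATP use. Of the 6 in the group, 3 were lower in untreated N108 and 4 in untreated M3, and none was higher. That is 50% and 66.7% called, beside 42.4% and 52.9% of all genes called and 21.6% and 26.8% called lower. DNAJB1, the HSP40 that works with HSP70 in the heat shock response (chromosome 19, 14514770 to 14529770, minus strand), was at 213, 211 and 209 CPM in untreated WT, 163, 154 and 171 CPM in N108 and 143, 142 and 159 CPM in M3. No mutant library reached the WT range, and the difference was -0.38 (SE 0.05, adjusted p = 5.6e-07) in N108 and -0.52 (SE 0.05, adjusted p = 1.3e-09) in M3. With TNF it was at 222, 213 and 237 CPM in WT, 171, 166 and 169 CPM in N108 and 156, 153 and 144 CPM in M3, or -0.41 (adjusted p = 1.4e-07) and -0.57 (adjusted p = 2e-10).

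DNAJA1, a J-domain partner of cytosolic HSP70 (chromosome 9, 33025211 to 33039907), was at 359, 358 and 361 CPM in untreated WT, 271, 275 and 286 CPM in N108 and 276, 268 and 272 CPM in M3. The mutants overlapped each other and lay below WT, at -0.38 (SE 0.048, adjusted p = 3.3e-07) and -0.40 (SE 0.048, adjusted p = 5.4e-08). With TNF the values were 404, 408 and 433 CPM in WT, 294, 255 and 292 CPM in N108 and 301, 295 and 316 CPM in M3, or -0.57 (adjusted p = 1.7e-10) and -0.45 (adjusted p = 7.9e-09). DNAJB6, which suppresses aggregation of glutamine-rich proteins (chromosome 7, 157335381 to 157417439), was at 77.3, 79.6 and 80.1 CPM in untreated WT, 61.2, 61.7 and 65.3 CPM in N108 and 53.2, 51.3 and 52.8 CPM in M3. The 3 genotypes did not overlap, with differences from WT of -0.33 (adjusted p = 5.3e-06) and -0.59 (adjusted p = 1.5e-10). With TNF DNAJB6 was at 83.9, 83.7 and 89.2 CPM in WT, 65.2, 55.8 and 63 CPM in N108 and 55.3, 54.1 and 56.8 CPM in M3, with differences of -0.48 (adjusted p = 1.3e-08) and -0.63 (adjusted p = 4.2e-11). DNAJB4 was called lower in N108 with TNF, at -0.61 (adjusted p = 1.9e-05). DNAJC7 and DNAJA2 had differences of -0.16 to 0.04 in the 4 comparisons, of which 3 were called for DNAJC7 and 1 for DNAJA2. The DNAJC7 call in untreated M3 held in 12 of 26 alternatives, with adjusted p up to 0.21.

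**Figure D3:**
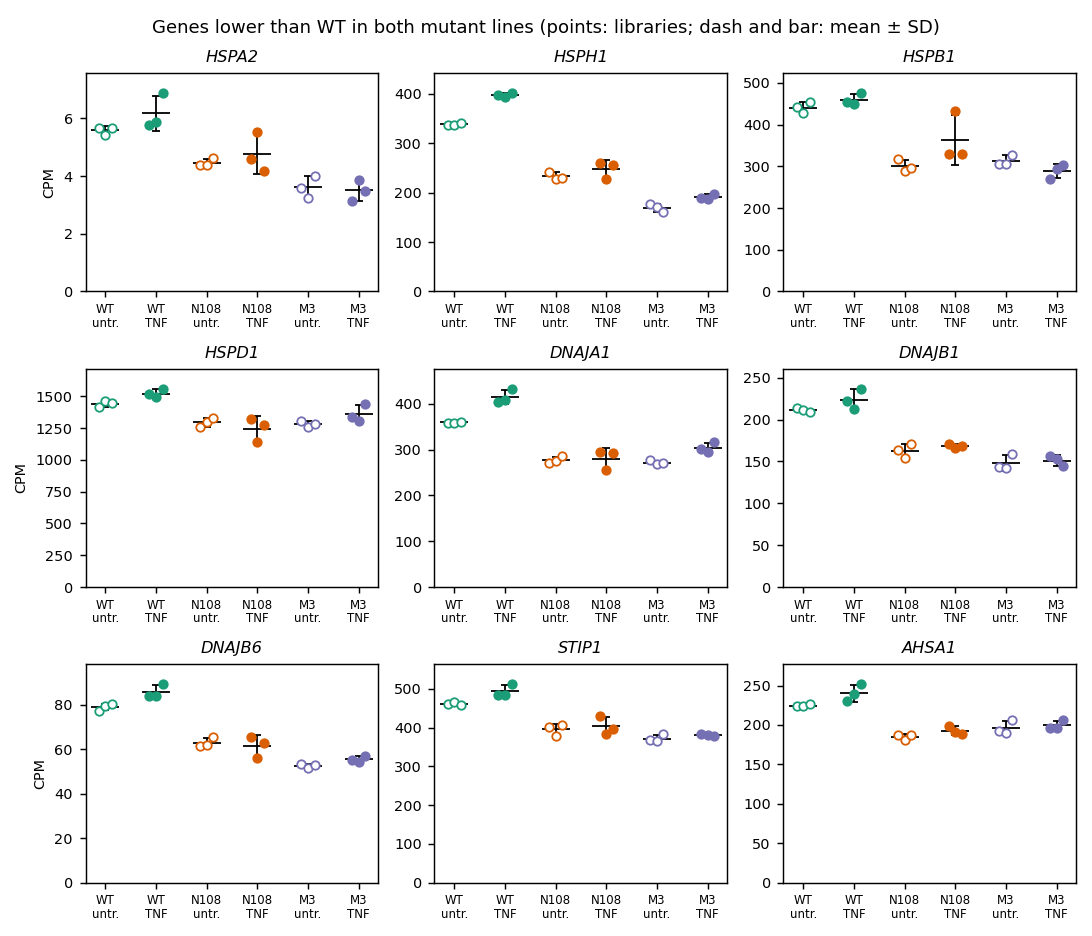
CPM in each of the 18 libraries for the 9 genes lower in both mutants untreated and with TNF, 1 panel per gene with its own axis from 0, 3 points per group and mean ± SD. HSPH1 shows the 3 genotypes apart in both conditions, at 337 to 340 CPM in untreated WT, 227 to 242 CPM in N108 and 161 to 176 CPM in M3.

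BAG proteins release nucleotide from HSP70. BAG1 was higher in both mutants, at 60.3, 61.5 and 68.5 CPM in untreated WT, 69.7, 74.9 and 71.6 CPM in N108 and 72.1, 72.2 and 77 CPM in M3, by 0.18 (adjusted p = 0.0052) and 0.22 (adjusted p = 0.00091). BAG3, which HSF1 induces under stress and which links HSP70 to autophagy, was at 103, 102 and 106 CPM in untreated WT and at 101 to 110 CPM in the mutants. Its differences from WT lay between -0.08 and 0.09 in the 4 comparisons, with none called.

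Of the 7 cochaperones of HSP70 and HSP90, 3 were lower in untreated N108 and 4 in untreated M3, and none was higher. That is 42.9% and 57.1% called, beside 42.4% and 52.9% of all genes called and 21.6% and 26.8% called lower. STIP1, or HOP, which bridges HSP70 and HSP90 (chromosome 11, 64185272 to 64204543), was at 461, 465 and 459 CPM in untreated WT, 400, 380 and 406 CPM in N108 and 367, 365 and 383 CPM in M3. Its difference from WT was -0.22 (SE 0.044, adjusted p = 0.00014) in N108 and -0.31 (SE 0.044, adjusted p = 8.5e-07) in M3. With TNF STIP1 was at 484, 485 and 512 CPM in WT, 430, 384 and 396 CPM in N108 and 384, 380 and 379 CPM in M3, with differences of -0.29 (adjusted p = 3.5e-06) and -0.38 (adjusted p = 3.6e-08). AHSA1, which stimulates the ATPase of HSP90 (chromosome 14, 77457870 to 77469474), was at 224, 224 and 226 CPM in untreated WT, 187, 181 and 187 CPM in N108 and 193, 190 and 206 CPM in M3. Both mutants lay below WT, at -0.28 (adjusted p = 7e-06) and -0.19 (adjusted p = 0.00045). With TNF AHSA1 was at 230, 239 and 252 CPM in WT, 199, 191 and 188 CPM in N108 and 196, 195 and 206 CPM in M3, again without overlap with WT, with differences of -0.32 (adjusted p = 9.2e-07) and -0.27 (adjusted p = 7.2e-06). CHORDC1, an HSP90 cochaperone, was lower in untreated M3 at -0.40 (adjusted p = 0.0002), and with TNF at -0.53 (adjusted p = 1.2e-05) in N108 and -0.47 (adjusted p = 2.8e-05) in M3. FKBP4, PTGES3 and ST13 were lower in both mutants with TNF, at -0.12 to -0.31, and CDC37, which brings kinases to HSP90, was not called. With TNF, the FKBP4 call in N108 held in 23 of 26 alternatives and the ST13 call in M3 in 21. The rest of these calls held in all 26.

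Among genes with a window, 4 of the 7 tested genes with a motif match and 8 of the 23 without were lower in untreated N108, and 5 of 7 and 10 of 23 in untreated M3. With TNF the counts were 6 of 7 and 16 of 23 in N108 and 6 of 7 and 13 of 23 in M3. Of all tested genes with a window, these included, 59 had a match and 12236 had none. In untreated cells 28.8% of those with a match and 25.1% of those without were lower in N108, and 42.4% and 31% in M3. With TNF the shares were 37.3% and 28.3% in N108 and 40.7% and 32.7% in M3. The difference between genes with and without a match was not tested. DNAJA1, DNAJB6, CHORDC1 and HSPA8 are the 4 shown with a match, and each was called lower in untreated M3. Of the matched genes not shown, HSP90AB1 was called in none of the 4 comparisons with WT. HSP90AA1 was called lower in all but untreated M3, HSPD1 was lower in all 4, and HSPA6 was not tested. HSPH1, with the largest difference in M3, has no exact match in its window. No exact match does not show that a gene lacks a heat shock element.

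The mutants also differed from each other. Untreated, 8 genes were higher and 2 lower in N108 than in M3, 29.4% of the 34 beside 31.5% of all genes (16.4% higher, 15% lower). With TNF 11 were higher and 8 lower, 55.9% beside 37.3% (20% higher, 17.3% lower); with the GC trend removed the split was 11 and 5. HSPH1 was higher in N108 by 0.46 (SE 0.048, adjusted p = 1.7e-08) untreated and 0.37 (adjusted p = 5.6e-07) with TNF, and HSPA14 by 0.42 (adjusted p = 2.2e-06) and 0.34 (adjusted p = 4.7e-05). Untreated DNAJB6 was higher in N108 by 0.26 (adjusted p = 0.00029), CHORDC1 by 0.23 (adjusted p = 0.026) and HSPA2 by 0.31 (adjusted p = 0.029). Of the 10 untreated calls, those for HSPH1, HSPA14, HSPB8 and DNAJB6 held in all 26 alternatives. CHORDC1 held in 23, HSPA2, HSPA9 and DNAJB1 in 21 each, ST13 in 18 and DNAJA2 in 11. The count of 10 was 5 without N108 untreated replicate 1 or M3 untreated replicate 1, 6 without N108 untreated replicate 2 or 3, and 16 with the GC trend removed (13 higher, 3 lower). The shares of all genes above come from the fit of all 18 libraries without GC removal. They are no background for counts from the other fits. Lower in N108 with TNF were DNAJB4, at -0.57 (adjusted p = 6.9e-05), HSPA4L, at -0.30 (adjusted p = 0.0013), and ST13, at -0.17 (adjusted p = 0.0028). HSF1 was higher in N108 with TNF by 0.30 (adjusted p = 0.00018) and TRAP1 by 0.24 (adjusted p = 0.00015). With the GC trend removed these differences with TNF were smaller for HSF1 at 0.13 (adjusted p = 0.0022), HSPA4L at -0.17 (adjusted p = 0.0045), DNAJB4 at -0.39 (adjusted p = 3.5e-07) and TRAP1 at 0.16 (adjusted p = 0.00022), and the ST13 call was lost at -0.08 (adjusted p = 0.092).

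A few of the genes rose with 40 min of TNF in WT. HSPH1, DNAJA1, DNAJB4 and HSPA1B were called higher and none was lower, 11.8% of the 34 beside 5.18% of all genes (2.03% higher, 3.15% lower). HSPH1 rose from 337, 337 and 340 CPM to 396, 392 and 401 CPM, by 0.23 (SE 0.047, adjusted p = 0.0025). DNAJA1 rose from 359, 358 and 361 CPM to 404, 408 and 433 CPM, by 0.21 (SE 0.048, adjusted p = 0.0075). Treated and untreated libraries did not overlap for either gene. DNAJB4, a J-domain protein, rose from 24.9, 22 and 22.4 CPM to 28.6, 28.4 and 32.2 CPM, by 0.36 (SE 0.092, adjusted p = 0.023). HSPA1B rose from 93.9, 86.9 and 88 CPM to 103, 103 and 110 CPM, by 0.23 (SE 0.065, adjusted p = 0.033), and by 0.23 (adjusted p = 0.032) with HSPA1A summed. HSF1 and CDC37 were the 2 of 34 with a negative fold change. The median was 0.10 beside 0.01 for all genes, and in 26 of the 34 all treated libraries lay above all untreated ones, which held for 16.1% of all genes. The call for DNAJA1 was lost without WT TNF replicate 3 (adjusted p = 0.083), and that for DNAJB4 without WT untreated replicate 2 or 3 or WT TNF replicate 3, up to an adjusted p of 0.17. That for HSPA1B was lost without WT untreated replicate 2 or 3 or WT TNF replicate 2 or 3, up to 0.2. DESeq2 called 8 genes for TNF in WT, a fit of only the groups compared 9, and a fit with the GC trend removed 12, all higher. Of all genes, these fits called 5.86%, 6.5% and 7.34%.

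No gene of the group was called with TNF in N108 or in M3, where 1.2% and 1.38% of all genes were called (1.1% higher and 0.0998% lower in N108, 1.1% higher and 0.278% lower in M3). At an unadjusted p under 0.05, 4 genes were higher and 2 lower in N108 and 4 higher and 1 lower in M3, against 18 higher in WT. Of all genes tested, 15.5% in N108, 9.33% in M3 and 18.4% in WT were under that p, in either direction. DESeq2 called 2 in N108 and 2 in M3, beside 1.7% and 1.61% of all genes. Without N108 TNF replicate 3, 3 genes of the group were called with TNF in N108, all higher, and the share of all genes called rose to 6.87%; the N108 interaction then called 6 of the group (1 positive, 5 negative) and 12.5% of all genes. The N108 interaction called 4 (0 positive, 4 negative) without M3 untreated replicate 3, and 0 when WT untreated replicate 2 or 3, WT TNF replicate 3, N108 untreated replicate 1 or 2, N108 TNF replicate 1 or 2 or M3 TNF replicate 3 was left out. HSPH1 with TNF differed by 0.09 (95% interval -0.02 to 0.19) in N108 and 0.18 (0.07 to 0.28) in M3. A call in WT and none in a mutant does not show that the responses differ, and the interaction tests of TNF with genotype bear on that. They called 1 gene, HSPA13, for N108 in the negative direction (2.94% of the 34, beside 2.62% of all genes called, 2.03% positive and 0.583% negative). They called 0 for M3, beside 0.315% of all genes, 0.284% positive and 0.0315% negative. The interaction of HSPH1 with N108 was -0.14 (95% interval -0.29 to 0.00, adjusted p = 0.21). HSPA13, an HSP70 bound to microsomes, was at 54.3, 49 and 48.2 CPM in untreated WT and 57.4, 56.6 and 64.9 CPM with TNF, and at 48.6, 51.7 and 45.3 CPM in untreated N108 and 43.8, 40.3 and 46.4 CPM with TNF. The treated WT libraries lay above the untreated ones and the N108 ranges overlapped, for an interaction of -0.40 (SE 0.10, adjusted p = 0.037).

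TNF comparisons moved with GC content. The Spearman correlation of log2 fold change with transcript GC over 18537 genes, which share library and base composition, was -0.3 for TNF in WT, 0.49 for TNF in N108, -0.27 for TNF in M3 and 0.51 for the interaction with N108. For the mutants against WT it was -0.17 to 0.17, for N108 against M3 -0.03 untreated and 0.32 with TNF, and for the interaction with M3 0.07. HSPA13, DNAJB4 and CHORDC1 have GC contents of 34.9%, 33.1% and 35%, among the lowest of the group. With the GC trend removed, the HSPA13 interaction was -0.17 (adjusted p = 0.21), and DNAJB4 in WT kept 0.29 (adjusted p = 0.00024).

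**Figure D4:**
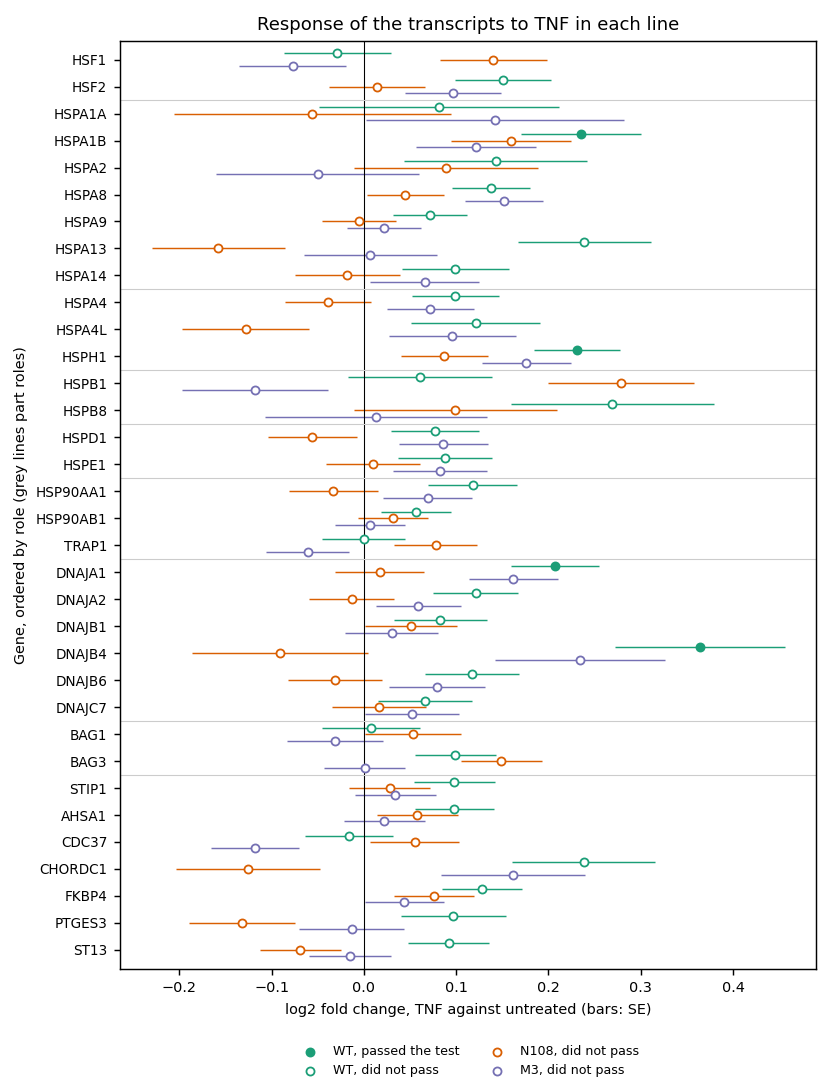
Log2 fold change of each of the 34 tested genes with TNF against untreated in WT, N108 and M3, with bars of 1 SE from the edgeR fit and filled points for adjusted p under 0.05. In WT 2 of 34 points lie below 0 and 4 are filled; in N108 and M3 none is filled.

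The related chaperone genes, 100 in 8 lists of which 98 were tested, also had more lower than higher calls, with differences below given on the log2 scale for N108 and then M3, untreated: 14 higher and 36 lower in untreated N108 (51%) and 16 higher and 30 lower in untreated M3 (46.9%), beside the 42.4% and 52.9% of all genes. With TNF in both arms, 11 were higher and 42 lower in N108 (54.1%) and 16 and 36 in M3 (53.1%), beside 46.7% and 54.7% of all genes. By list, the share called in N108 with TNF ran from 14.3% (other HSP70 exchange factors) to 78.6% (TRiC and prefoldin), beside 76.5% of the 34. For TNF against untreated in WT, 2 were higher and 3 lower, 5.1% beside 5.18% of all genes. In untreated cells, 2 of 19 other J-domain genes were higher and 7 lower in N108 and 2 and 8 in M3. DNAJB2 fell by 0.61 and 0.64 and DNAJA4 by 0.49 and 0.16 (adjusted p = 2e-10, 4.4e-11, 2.2e-09 and 0.007). Of 8 other HSF1 target genes, 1 was higher and 4 lower in N108 and 1 and 3 in M3. The collagen chaperone SERPINH1 fell by 0.29 (adjusted p = 1.9e-05) and 0.16 (adjusted p = 0.0062), and the haem oxygenase HMOX1 was higher by 0.76 (adjusted p = 5.1e-06) and 0.54 (adjusted p = 0.00015). Of 14 TRiC and prefoldin genes, 2 were higher and 5 lower in N108 and 3 and 5 in M3, with CCT5 at -0.21 and -0.30 and PFDN2 at 0.32 and 0.43. Among 15 other HSP90 cochaperones and CHIP, 2 were higher and 8 lower in N108 and 2 and 5 in M3. FKBP5 was higher by 0.50 (adjusted p = 2.5e-09) and 0.63 (adjusted p = 1.3e-11).

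Among 16 chaperones of the endoplasmic reticulum, 3 were higher and 3 lower in N108 and 4 and 3 in M3, with HSP90B1 at 0.12 and 0.27 and CRELD2 at -0.26 and -0.45. Of 9 HSF1 regulators and other heat shock factors, 0 were higher and 3 lower in N108 and 1 and 3 in M3. VCP, an ATPase that unfolds ubiquitinated proteins, fell by 0.24 and 0.35, and HDAC6, a deacetylase of HSP90, fell by 0.37 and 0.39. Of 10 mitochondrial proteases and import motor genes, 2 were higher and 4 lower in N108 and 2 and 2 in M3, with the protease HTRA2 at 0.36 and 0.43. Of 7 other HSP70 exchange factors, 2 were higher and 2 lower in N108 and 1 and 1 in M3, with BAG2 at 0.31 and 0.51.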

How the data were processed

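Per the labels, 18 libraries of total RNA were sequenced in pairs of 50 bp reads. The authors deposited raw read counts per gene, made, per the submitters' processing notes, with Trim Galore 0.6.6, STAR 2.7.8 and featureCounts of Subread 2.0.1 on hg38, with DESeq2 1.38.3 also named. With the annotation release, the strand setting and the treatment of reads matching several genes not given in the sources used here, overlapping genes on opposite strands cannot be told apart. The authors' normalized table was not used, because counts could be tested.

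Symbols were matched for 99.8% of the 61552 genes. edgeR 4.0.16 in R 4.3.3 kept 19038 genes (filterByExpr, minimum count 10), scaled libraries by TMM and fitted 1 mean per group over all 18 libraries (robust quasi-likelihood, 12 residual degrees of freedom). Tests are two-sided, with Benjamini-Hochberg adjustment over all genes tested and a threshold of 0.05, in 9 comparisons of 2 groups and 2 interactions. Dividing the size of a log2 fold change by √F gave its SE. CPM use TMM-scaled totals. Exon length, GC content (for 97.4% of tested genes) and positions come from GENCODE 29 on GRCh38, promoters from RefSeq. Intervals cover the spread between libraries in the fit.

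Full values are given for HSF1, HSPA1A, HSPA1B, HSPA8, HSP90AA1, DNAJB1 and HSPH1, and per comparison for up to 6 called genes with the smallest adjusted p (up to 3 for TNF and interactions), and for related lists up to 3 genes. Other genes of the group are given by range or by call. The genes and lists were chosen with earlier results of these data known. Alternatives were DESeq2 1.42.0, its size factors, no filter, 1 CPM in 3 libraries, a replicate block, GC trend removal, only the groups compared, and leaving out each library. The code was tested on simulated data.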

Additional observations from a re-analysis of the deposited data

Results flagged for a closer look

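HSPA13 was singled out because the interaction test found that its difference with TNF was not the same in N108 as in WT: the interaction was -0.40 on the log2 scale (SE 0.10, adjusted p = 0.037 by edgeR's quasi-likelihood test). Its TNF difference was 0.24 (adjusted p = 0.053) in WT, with all 3 treated libraries above the untreated ones, and -0.16 (adjusted p = 0.3) in N108, with overlapping ranges. The call held in 15 of 26 alternatives, with values of -0.45 to -0.17. HSPA13 has a GC content of 34.9%, and with the GC trend removed the interaction was -0.17 (adjusted p = 0.21). The part of GC content in the difference was not tested further.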

How the results depend on the processing

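Counts of heat shock genes called in the mutants against WT stayed within 1.5 times under the alternatives run, except for untreated N108, where removing the GC trend gave 27 in place of 16, with or without the replicate block. The remaining counts outside that limit came from the TNF, interaction and N108 against M3 comparisons. TNF in WT (4) gave 8 with DESeq2, 12 with the GC trend removed, 13 with the replicate block added to that, and 9 with only the groups compared. Of all genes these fits called 5.86%, 7.34%, 7.44% and 6.5%, beside 5.18%. TNF in N108 (0) gave 2 with DESeq2 and 1 each with no filter, the GC trend removed, and block with GC. TNF in M3 (0) gave 2 with DESeq2, 2 with no filter, 1 with the GC trend removed and 3 with block and GC. N108 against M3 untreated (10) gave 16 with the GC trend removed, with or without the block. The interaction with N108 (1) gave 3 with DESeq2, 5 with no filter, 2 with only the groups compared, and 0 with the block, with GC, or with both. The cause of these shifts was not tested. Apart from TNF in WT, they are given here without the share of all genes called in the same fit.

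Leaving out each library in turn gave 1 to 7 for TNF in WT (1 without WT TNF replicate 3), 0 to 3 for TNF in N108 (3 without N108 TNF replicate 3) and in M3 (3 without N108 TNF replicate 2), 14 to 18 for untreated N108, 18 to 21 for untreated M3, 23 to 27 and 21 to 25 with TNF, 5 to 11 and 16 to 20 for N108 against M3 untreated and with TNF, 0 to 6 for the interaction with N108 (6 without N108 TNF replicate 3) and 0 to 0 for that with M3. N108 against M3 untreated fell to 5 without N108 untreated replicate 1 or M3 untreated replicate 1. For TNF in WT, 2.23% of all genes were called without WT TNF replicate 3, beside 5.18% in the main fit. The count of 7 came without N108 TNF replicate 2 (6.37% of all genes) or M3 untreated replicate 3 (5.82%). For TNF in N108 without N108 TNF replicate 3, 6.87% of all genes were called, beside 1.2%. The other counts are given here without that share.

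Replicate numbers did not pair the libraries: same-numbered libraries had correlations of -0.15 to 0.1 over 45 pairs, and 7 of 18 libraries correlated best with their own number. The replicate block alone left the counts at 4, 0, 0, 16, 20, 26 and 25 for the TNF and mutant comparisons, and gave 9 and 20 for N108 against M3. CHORDC1 in N108 against M3 with TNF turned from -0.05 to 0.10 with the block and the GC trend removed. With 3 libraries per group, small differences may go uncalled.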
